A study of Mus musculus with 2 samples.

Results

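Chemoattractant receptors are membrane proteins through which a blood cell senses chemokines or complement fragments and moves toward their source. The 7 receptor genes described here are Cxcr4, Cxcr2, Ccr1, Ccr2, Ccr3, Cx3cr1 and C3ar1. Each symbol matched 1 row of the gene lists of both matrices, so the set holds 7 of the 31053 genes measured. They were followed between the sorted populations and, among cells with the basophil protease gene Mcpt8, along the share of a cell's transcripts given to a further basophil protease gene, Prss34.

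The cells were mouse bone marrow cells, FVB strain in the labels, sorted by surface E-cadherin and cKIT (the stem cell factor receptor) into E-cadherin+cKIT+ and E-cadherin+cKIT- populations. The paper's text calls the donors wild-type and its legend gives VaviCre; mTmG mice, a reporter cross in which Vav-driven Cre acts in blood cells. No treatment, time point or age separated the sorts, and all cells of a sort, pooled from several mice, form 1 library. With 1 library per sort there is no replicate, so no test was made and every interval is a 95% interval of counting error alone. Sums of unique molecular identifiers (UMIs, 1 per captured RNA molecule) carry exact Poisson intervals, and shares of cells carry exact binomial (Clopper-Pearson) intervals.

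The study's cell filter left 6479 of 6632 cKIT+ cells and 3662 of 3745 cKIT- cells. The libraries differed in depth, with a median of 13039 UMIs per kept cKIT+ cell and 4416.5 per kept cKIT- cell. Levels are therefore given as UMIs per 1000000 UMIs of the cells summed (CPM), and shares of cells with a UMI also after drawing 2000 UMIs from each cell. Kit matched the labels, at 37.1 CPM in cKIT+ and 0.875 CPM in cKIT- cells. Cdh1 (E-cadherin) was at 62.8 and 193 CPM over the libraries, but unevenly between clusters of cells (given further on). Both libraries shared 10 cell barcodes. A sum over a sort does not separate fewer cells of a type from less RNA per cell.

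CXCR4 binds CXCL12, the chemokine of marrow stroma that keeps blood cells in the marrow, and CXCR2 binds CXCL1 and CXCL2 and is known for drawing neutrophils out of it. CCR1 recognises inflammatory CC chemokines such as CCL3, CCL6 and CCL9, CCR2 is the CCL2 receptor of monocytes, and CCR3 is the eotaxin receptor of eosinophils and basophils. CX3CR1 is the fractalkine receptor of monocytes and macrophages, and C3AR1 binds the complement fragment C3a. All signal through G proteins of the inhibitory class to the machinery of cell movement.

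Between the sorts, 5 of the 7 receptor genes (Cxcr2, Ccr1, Ccr2, Ccr3 and C3ar1) had a 2-fold or larger excess in cKIT- cells, and 1, Cx3cr1, had such an excess in cKIT+ cells. That of Ccr2 did not hold under other ways of summing the cells. Of the 9459 genes that reached 5 CPM in either library, 9.32% had a 2-fold excess in cKIT- and 8.52% in cKIT+. Ccr3 and C3ar1 reached this minimum only in cKIT-, and Cx3cr1 only in cKIT+. The receptors were chosen with earlier results of these data known, so these counts are description only. The remaining receptor gene, Cxcr4, differed by less than 2-fold, and the median log2 ratio of cKIT+ over cKIT- was -2.31 for the 7 receptors and -0.02 over all genes compared.

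C3ar1 showed the widest gap. Its 261 UMIs in the cKIT+ library were 2.86 CPM (2.53 to 3.23), and its 1189 UMIs in the cKIT- library were 52.0 CPM (49.1 to 55.0), a ratio of 18.1 (15.9 to 20.8). Ccr3 was at 2.13 CPM (1.84 to 2.45) among cKIT+ and 18.5 CPM (16.7 to 20.3) among cKIT- cells, a ratio of 8.67 (7.29 to 10.3). Cxcr2 stood at 17.0 CPM (16.2 to 17.9) against 143 CPM (138 to 148), a ratio of 8.41 (7.91 to 8.94). The chemokine receptor gene with most UMIs in cKIT- cells was Ccr1, at 321 CPM there (314 to 329) against 64.7 CPM (63.0 to 66.3), a ratio of 4.97 (4.80 to 5.15). For C3ar1, Ccr3, Cxcr2 and Ccr1 the size of the ratio depended on how the cells were summed, but its direction did not (given further on). Of the Ccr3 UMIs of cKIT+ cells, 61.3% were in the 1% of cells with most. Cx3cr1 ran the other way, with 16.5 CPM (15.7 to 17.3) in the first sort and 3.50 CPM (2.77 to 4.35) in the second, a ratio of cKIT+ over cKIT- of 4.71 (3.76 to 5.97). Its 80 cKIT- UMIs were all in 1% of the cells, 46 of them in monocyte-like cells, and within basophil-like clusters the ratio was 38.7.

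**Figure D1:**
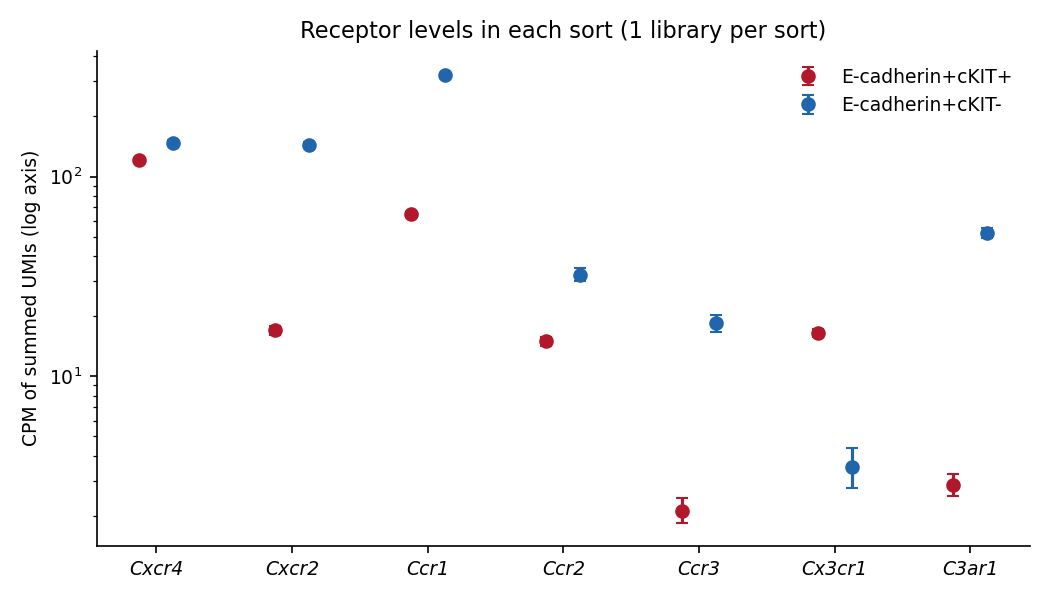
CPM of each receptor gene, on a log axis, in the E-cadherin+cKIT+ (red) and E-cadherin+cKIT- (blue) library, with exact 95% Poisson intervals for counting error. C3ar1 lies at 2.86 CPM in cKIT+ and 52.0 CPM in cKIT- cells, Cx3cr1 at 16.5 and 3.50 CPM, and Cxcr4 at 121 and 147 CPM.

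For Cxcr4 the levels were 121 CPM (119 to 124) with cKIT and 147 CPM (142 to 152) without it, a ratio of cKIT+ over cKIT- of 0.827 (0.795 to 0.859). This order turned under 4 other ways of summing the cells, up to a ratio of 1.86 in UMIs per cell, so no direction is drawn for it. Ccr2, at 14.96 CPM (14.2 to 15.8) and 32.3 CPM (29.98 to 34.7), also turned, from a ratio of cKIT+ over cKIT- of 0.464 to 1.04 within basophil-like clusters and 2.74 among Mcpt8-positive cells alone. A few cells held most of its UMIs, with 53.6% of them in the 1% of cKIT+ cells with most and 72.5% in the same fraction of cKIT- cells.

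Shares of cells at equal depth had the same order for the other 5 genes. After thinning, which left out 345 cKIT+ and 176 cKIT- cells with fewer than 2000 UMIs, a Cxcr2 UMI was found in 4.48% (3.98 to 5.03) of the 6134 cKIT+ cells and 30.2% (28.7 to 31.7) of the 3486 cKIT- cells left, against 17.3% and 48.5% before thinning. For Ccr1 the thinned shares were 12.9% and 47.5%, for C3ar1 1.08% and 14.0%, for Ccr3 0.750% and 5.88%, and for Cx3cr1 3.42% and 0.373%. B cell-like cells, which should lack most of these genes and had a median of 2684.5 UMIs in cKIT-, held a Cxcr2 UMI in 2.17% of 230 cells, a Ccr1 UMI in 3.91%, a C3ar1 UMI in 1.30% and no Ccr3, Ccr2 or Cx3cr1 UMI. The thinned C3ar1 share of cKIT+ cells is close to that level, which was not thinned and comes from the other library. The C3ar1 UMIs of cKIT+ cells were unevenly spread over cell types. Basophil-like clusters held 64.0% of them at 3.11 CPM (2.65 to 3.62) and macrophage-like cells 27.6% at 134 CPM (105 to 169). Neutrophil-like cells had 0.188 CPM (0.00477 to 1.05). The B cell-like cells of cKIT+ had 4.66 CPM (0.565 to 16.8), from 2 UMIs. The level summed over all basophil-like cKIT+ cells is therefore not separated from that of B cell-like cells, but the sum mixes unlike clusters. The cKIT+ cells of a basophil-like cluster led by Cd7, Ccl6 and Ccl4 had 224 CPM (159 to 306). Those of one led by Sytl3, Ccl3 and Cd7 had 116 CPM (71.0 to 180). Both intervals lie above that of the B cell-like cells.

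The gene positions below are those of GENCODE release 21 for mouse (GRCm38). Ccr1 (chromosome 9, 123962124 to 123968692), Ccr3 (124021972 to 124031689) and Ccr2 (124101950 to 124113557) lie within 151.4 kb of each other. Cx3cr1 is on the same chromosome (119901616 to 120069879), and its annotated span overlaps 9 other genes, of which 1, Gm33858 on the opposite strand, shares exon bases with it. Cxcr2 (74153989 to 74161246) and Cxcr4 (128588199 to 128592293) are on chromosome 1, and C3ar1 (122847138 to 122856161) is on chromosome 6. These 6 genes other than Cx3cr1 overlap no annotated gene. The neighbours Ccr1, Ccr3 and Ccr2 were highest in different clusters of cells.

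Promoters are shown for the 4 genes with the widest CPM ratios along the Prss34 share of cKIT- cells (given further on), 3 that were high at the Prss34-low end and 1, Cxcr4, that was low there. All 7 receptors matched a RefSeq promoter window (GRCm38.p6, 250 bases before to 50 after the RefSeq start of the gene). For Ccr2 and Cx3cr1 the RefSeq start lies inside the GENCODE gene, downstream of the GENCODE start, and for the other 5 both starts lie within a few bases of each other. Each window was searched on both strands for the GATA motif AGATAA and for the AP-1 motif TGANTCA, where N is any base. The AP-1 motif was chosen after the letters had been seen, and no match of one motif overlaps a match of the other. Letters in capitals mark the matches, and sequences run 5' to 3' on the strand of the gene.

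Cxcr2 (chr1:74153744-74154043, plus strand): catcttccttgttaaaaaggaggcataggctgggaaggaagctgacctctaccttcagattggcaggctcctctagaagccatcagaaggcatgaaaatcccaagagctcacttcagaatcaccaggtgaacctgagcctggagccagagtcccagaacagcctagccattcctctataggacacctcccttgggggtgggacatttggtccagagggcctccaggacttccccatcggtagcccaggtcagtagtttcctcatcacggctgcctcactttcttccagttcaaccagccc

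Ccr3 (chr9:124021721-124022020, plus strand): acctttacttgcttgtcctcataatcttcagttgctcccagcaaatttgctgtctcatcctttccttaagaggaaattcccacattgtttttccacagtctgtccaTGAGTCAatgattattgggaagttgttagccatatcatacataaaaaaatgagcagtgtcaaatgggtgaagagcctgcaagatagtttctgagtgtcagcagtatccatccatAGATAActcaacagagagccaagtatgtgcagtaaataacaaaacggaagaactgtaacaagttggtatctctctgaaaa

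C3ar1 (chr6:122856108-122856407, minus strand): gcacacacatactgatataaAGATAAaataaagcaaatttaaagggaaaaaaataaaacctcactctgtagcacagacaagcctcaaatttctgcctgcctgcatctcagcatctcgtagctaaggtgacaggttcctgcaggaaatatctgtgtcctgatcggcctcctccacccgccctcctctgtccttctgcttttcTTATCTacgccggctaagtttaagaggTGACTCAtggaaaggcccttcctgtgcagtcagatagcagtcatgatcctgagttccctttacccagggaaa

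Cxcr4 (chr1:128592250-128592549, minus strand): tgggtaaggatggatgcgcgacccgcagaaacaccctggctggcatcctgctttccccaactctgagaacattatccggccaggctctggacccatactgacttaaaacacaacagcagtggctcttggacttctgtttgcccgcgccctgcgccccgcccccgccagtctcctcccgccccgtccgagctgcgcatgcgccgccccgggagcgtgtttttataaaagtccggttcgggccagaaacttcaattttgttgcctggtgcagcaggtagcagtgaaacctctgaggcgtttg

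The C3ar1 window held AGATAA at -230 and, on the opposite strand, TTATCT at -49, and an AP-1 match at -22 from the start of the gene. The Ccr3 window held AGATAA at -30 and an AP-1 match at -144. Cxcr2, Cxcr4, Ccr1 and Cx3cr1 had no match to either motif in these windows, and Ccr2 had 1 GATA match at -97 from its RefSeq start, which is inside the GENCODE gene. Of 32851 promoter windows of the same length, 11.2% held the GATA motif and 7.81% the AP-1 motif. Because the AP-1 motif was chosen after the letters had been seen, its matches here cannot be weighed against that share. These are matches of letters, and no binding was measured.

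Clusters of the merged cells, made with the 7 receptor genes left out of the clustering, placed the receptors in different cells. Of 25 clusters, 11 were basophil-like. These had at least 5 of 10 basophil markers on, no other class with at least 2 leading genes and 3 markers on, and were not of low depth. Together they held 3607 cKIT+ and 3254 cKIT- cells. Outside this class, a cluster led by Gzmb and Cma1 (429 cells) had 6 basophil markers on. A cluster led by Car1 and Car2 (331 cells) had 7, and a low-depth cluster led by Gm42418 (271 cells) had 9. Cxcr2, Ccr1 and C3ar1 were highest in a basophil-like cluster led by Cd7, Ccl6 and Ccl4, with 1287 cells of which 1218 were cKIT-. There Cxcr2 reached 501.5 CPM, Ccr1 466 CPM, C3ar1 196 CPM and Ccr3 77.4 CPM, while Cxcr4 had 24.1 CPM. Next to it stood a basophil-like cluster led by Sytl3, Ccl3 and Cd7 (661 cells, 627 of them cKIT-), with Cxcr2 at 221.5 CPM, Ccr1 at 430.4 CPM, C3ar1 at 92.3 CPM, Ccr3 at 24.6 CPM and Cxcr4 at 82.5 CPM. The other 9 basophil-like clusters had Cxcr4 between 112 and 215 CPM and Cxcr2 between 9.89 and 64.9 CPM. Cdh1 lay between 62.7 and 355 CPM in the basophil-like clusters, highest in the Cd7/Ccl6 cluster. It was at 219 CPM in the low-depth cluster and at 42.2 CPM or less in every other cluster. Among these were the monocyte-like cluster (12.6 CPM), the macrophage-like cluster (7.07 CPM) and the neutrophil-like cluster led by Retnlg (3.17 CPM).

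**Figure D2:**
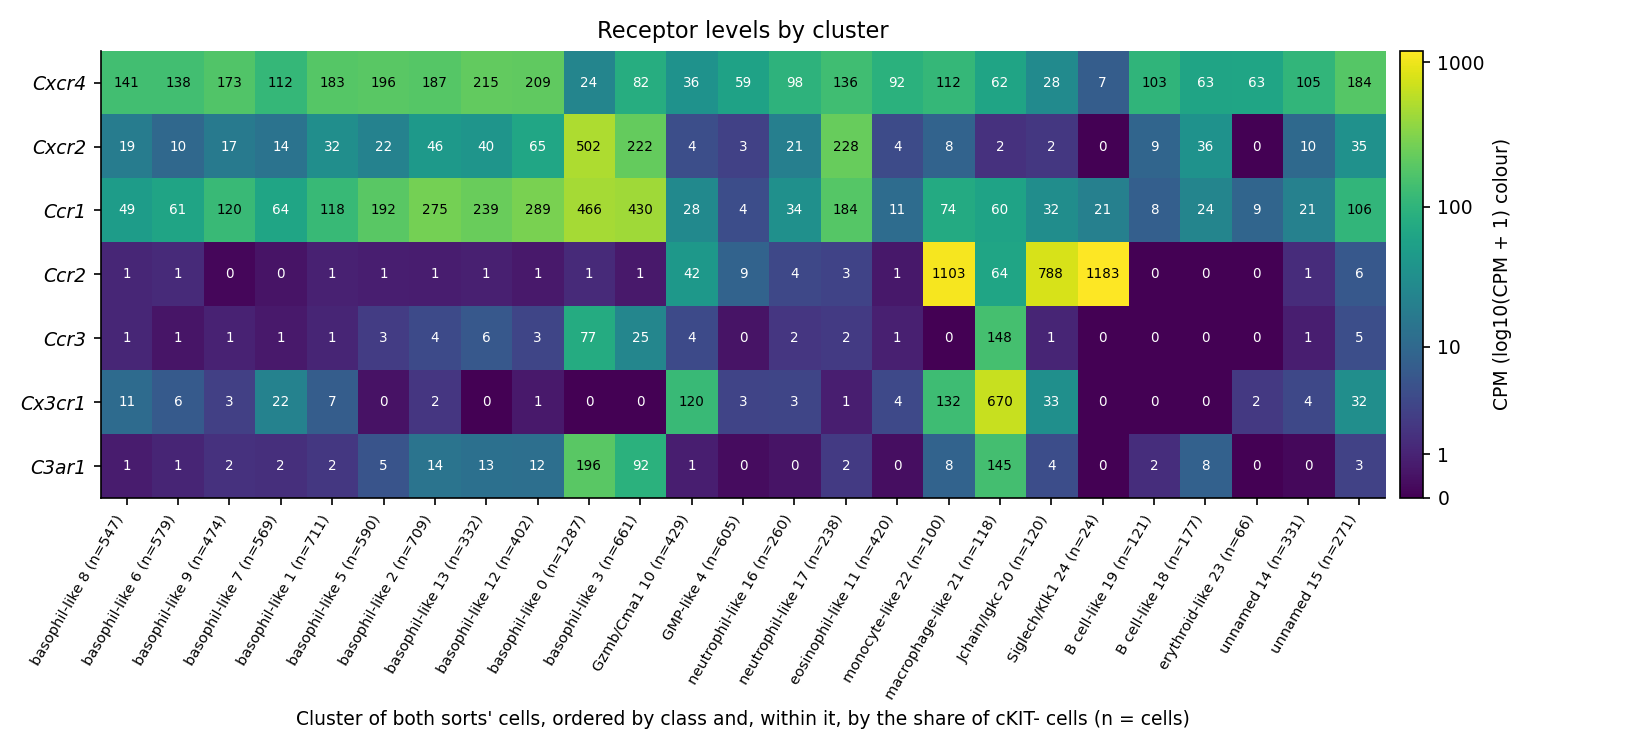
CPM of the 7 receptor genes (rows) in each of the 25 clusters (columns, labelled by class or leading genes, cluster number and number of cells of both sorts), with colour on a log10(CPM + 1) scale and the CPM printed in each field. Cxcr2, Ccr1 and C3ar1 are highest in basophil-like cluster 0 (501.5, 466 and 196 CPM), Cxcr4 in basophil-like cluster 13 (215 CPM), Ccr2 in the Siglech-led cluster 24 (1183 CPM), and Ccr3 and Cx3cr1 in macrophage-like cluster 21 (148 and 670 CPM).

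Neutrophil-like cells also carried Cxcr2 and Ccr1. In the neutrophil-like cluster led by Retnlg, Mmp9 and Mmp8 (238 cells), the levels were 228 CPM for Cxcr2 and 184 CPM for Ccr1, while C3ar1 and Ccr3 each had 2.38 CPM, from 3 UMIs. A finer clustering (resolution 2) split off 80 neutrophil-like cells led by Retnlg, Gm5483 and Stfa2l1, in which Cxcr2 reached 787 CPM, Ccr1 622 CPM and Cxcr4 259 CPM, the highest levels of any cluster at that resolution. With both sorts pooled, the Cd7/Ccl6 cluster was thus the highest for Cxcr2 and Ccr1 at resolution 1, but no basophil-like cluster was at resolution 2. Among cKIT- cells at resolution 1, Cxcr2 was at 461 CPM (381 to 553) in 58 cells of the Retnlg cluster. In the Cd7/Ccl6 cluster it was at 504 CPM (481 to 528), with overlapping intervals. For Ccr1 the same cells had 339 CPM (271 to 418) and 469 CPM (447 to 493).

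Ccr2 was highest in 3 small clusters. It had 1103 CPM in the monocyte-like cluster (100 cells, led by Fn1 and S100a4), 788 CPM in a cluster of 120 cells led by Jchain, Igkc and Igha, genes of antibody-making cells, with the class II genes H2-Ab1, Cd74 and H2-Aa and the dendritic cell gene Cd209a also among its leading genes, and 1183 CPM in a cluster of 24 cells led by Siglech, a gene of plasmacytoid dendritic cells. Basophil-like clusters had 0.837 CPM in cKIT+ and 0.805 CPM in cKIT- cells, from 45 and 17 UMIs. They held 3.30% of the cKIT+ library's Ccr2 UMIs and 2.30% of those of the cKIT- library.

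Cx3cr1 was spread over more kinds of cells. The macrophage-like cluster led by C1qa, C1qb and C1qc (118 cells) had 670 CPM, the monocyte-like cluster 132 CPM, and a cluster led by Gzmb and Cma1, a granzyme and a mast cell chymase (429 cells, all cKIT+), 120 CPM. The last gave 30.4% of the cKIT+ Cx3cr1 UMIs, the macrophage-like cells 23.8% and the basophil-like clusters 32.8%. Within the basophil-like class the level was 9.17 CPM in cKIT+ cells (493 UMIs) and 0.237 CPM in cKIT- cells (5 UMIs). The first sum mixes unlike clusters. Of its 493 UMIs, 246 were in a cluster led by Ccnb2, Ube2c and Aspm, at 23.2 CPM (20.4 to 26.3). The cKIT+ cells of the other basophil-like clusters had between 0 and 10.8 CPM. The macrophage-like cluster also had the highest Ccr3 level, 148 CPM, ahead of 77.4 CPM in the Cd7/Ccl6 cluster, and 145 CPM of C3ar1. In the eosinophil-like cluster, led by Prg2, Epx and Prg3 (420 cells), Ccr3 had 0.863 CPM from 3 UMIs.

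Mcpt8-positive cells, in which Mcpt8 took at least 0.1% of the UMIs, numbered 3853 of 6479 cKIT+ cells (59.5%) and 2967 of 3662 cKIT- cells (81.0%). Basophil-like clusters held 83.2% of the former and 98.96% of the latter. The share of each receptor's UMIs that fell in these cells differed by gene. In cKIT+ it was 92.5% for Ccr1, 78.2% for Cxcr4, 73.8% for Cxcr2, 60.5% for C3ar1, 39.7% for Ccr3, 32.2% for Cx3cr1 and 10.4% for Ccr2. In cKIT- it was between 82.7% and 94.5% for Cxcr2, C3ar1, Ccr3, Ccr1 and Cxcr4, 6.25% for Cx3cr1 and 2.57% for Ccr2.

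The Mcpt8-positive cells were placed in 6 bins of the Prss34 share of their UMIs, under 0.1%, 0.1 to 0.5%, 0.5 to 1%, 1 to 2%, 2 to 4%, and 4% or more. In cKIT-, the bins held 737, 196, 102, 153, 419 and 1360 cells from low to high Prss34, and in cKIT+ 726, 582, 411, 672, 957 and 505. Of the 5 receptors that reached 5 CPM in the lowest or highest cKIT- bin, 3 (Cxcr2, Ccr3 and C3ar1) had a 2-fold excess in the lowest bin, against 11.8% of the 9056 genes compared, and 1 (Cxcr4) was at least 2-fold lower, against 16.5%. In cKIT+, 2 of the 5 compared (Ccr2 and Cx3cr1) were at least 2-fold higher in the lowest bin, against 6.41% of 9189 genes, and 1 (Ccr1) was at least 2-fold lower, against 4.23%. Ccr2 and Cx3cr1 reached 5 CPM in the lowest but not in the highest cKIT+ bin.

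In cKIT- cells, Cxcr4 and Cxcr2 ran in opposite directions along Prss34. From the lowest to the highest bin, Cxcr4 had 18.5, 50.6, 90.1, 112, 189.7 and 181 CPM, and Cxcr2 had 501, 373, 316, 220, 91.6 and 54.0 CPM. The Cxcr4 ratio of the lowest over the highest bin was 0.103 (0.0738 to 0.139), from 42 and 2384 UMIs. For Cxcr2 that ratio was 9.28 (8.44 to 10.2), from 1135 and 713 UMIs. Thinned to 2000 UMIs, the share of cells with a Cxcr4 UMI was 3.26% in the lowest bin and 28.6% in the highest, and the share with a Cxcr2 UMI was 63.0% and 12.6%.

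C3ar1 and Ccr3 had the same direction as Cxcr2. C3ar1 had 197, 109.6, 105.5, 89.7, 36.7 and 17.6 CPM along the bins, a ratio of lowest over highest of 11.2, and Ccr3 had 79.5, 46.4, 39.6, 19.5, 8.45 and 5.99 CPM, a ratio of 13.3. The Ccr3 interval of the lowest bin (68.3 to 92.0) lay above all others, and from the second bin on neighbouring intervals overlapped. Ccr1 was high throughout, with 444, 469.5, 418, 415, 327 and 303 CPM, and its ratio of 1.46 (1.37 to 1.57) turned to 0.464 in UMIs per cell. Cells of the lowest bin had a median of 3014 UMIs and those of the highest 9500.5. Along the same bins, the proliferation gene Mki67 went from 7.07 to 312 CPM and Cdh1 from 338 to 164 CPM. With every cell thinned to 2000 UMIs the ratios were 7.07 for Cxcr2, 8.84 for C3ar1, 12.7 for Ccr3, 0.0975 for Cxcr4 and 1.41 for Ccr1. The part of cell division in these ratios was not tested.

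The summed level of the 10 neutrophil markers was 3535 CPM in the lowest cKIT- bin, with 6 of 10 at 20 CPM or more and Mmp8 at 0. In the next bin it was 66.1 CPM, with 1 of 10 at that level and Camp, Cebpe and Ly6g at 0, and Cxcr2 was at 373 CPM there. Of the neutrophil marker UMIs of the lowest bin, 99.3% were in 10 cells. Without the cells in which markers of other classes exceeded 0.5% of UMIs (progenitor list aside, a choice made after seeing the data), 730 cells of the lowest bin remained and the ratios were 9.40 for Cxcr2, 11.3 for C3ar1 and 13.5 for Ccr3. With the progenitor list included, 719 cells of the lowest and 252 of the highest bin remained, and the ratios were 5.27, 4.62 and 4.56. In UMIs per cell they were 2.94, 3.54 and 4.20.

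**Figure D3:**
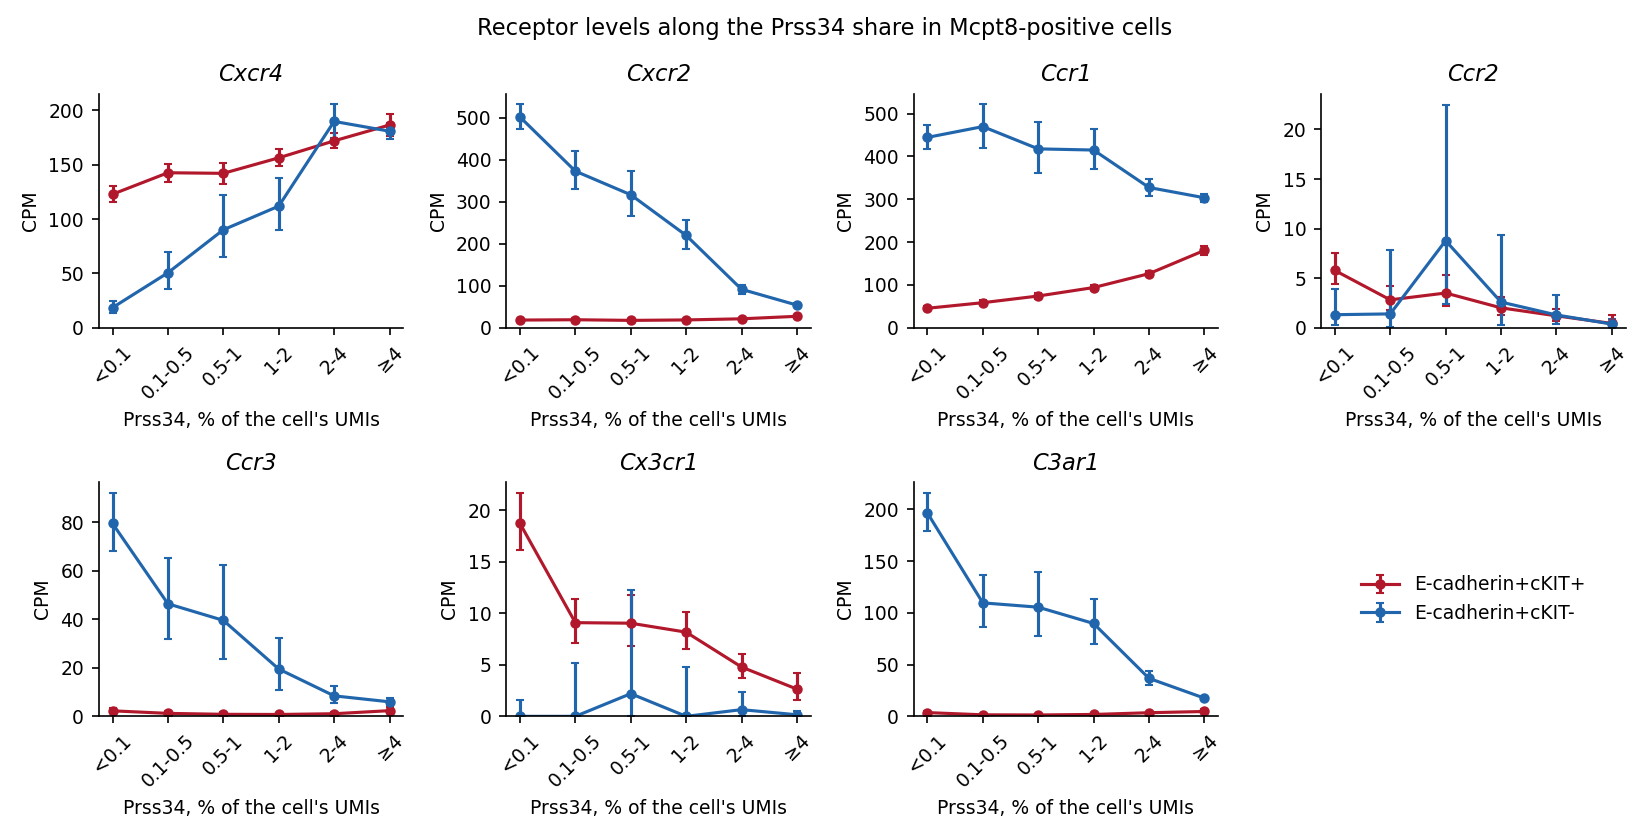
CPM of each receptor gene in Mcpt8-positive cells, in 6 bins of the Prss34 share of a cell's UMIs (x axis, percent), for E-cadherin+cKIT+ (red) and E-cadherin+cKIT- (blue) cells, with exact 95% Poisson intervals and a vertical scale of its own for each gene. In cKIT- cells Cxcr2 lies at 501 CPM in the lowest bin and 54.0 CPM in the highest and Cxcr4 at 18.5 and 181 CPM, whereas in cKIT+ cells Cxcr2 stays between 17.7 and 27.4 CPM.

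In cKIT+ cells the same bins gave another picture. Cxcr2 had 18.5, 19.3, 17.7, 18.8, 21.5 and 27.4 CPM, a ratio of lowest over highest of 0.675 (0.547 to 0.833) that turned to 1.14 when each cell had the same weight. Cxcr4 was high in every bin, at 123, 143, 142, 156, 172 and 186 CPM, and its ratio of 0.659 (0.608 to 0.713) was in the direction seen in cKIT-. Ccr1 went from 45.7 over 58.7, 74.2, 94.0 and 126 to 181 CPM, a ratio of 0.253 (0.226 to 0.282), opposite in direction to its CPM ratio in cKIT- cells. Ccr3 stayed between 0.768 and 2.35 CPM and C3ar1 between 1.34 and 4.69 CPM, so neither reached in any cKIT+ bin the level of its lowest cKIT- bin. Their ratios of lowest over highest were 0.969 (0.486 to 1.97) and 0.771 (0.463 to 1.29). With equal cell weight these became 2.39 and 2.23, and after thinning to 2000 UMIs 2.24 and 1.99. No direction is drawn for Ccr3 and C3ar1 in cKIT+.

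Cx3cr1 and Ccr2 were the genes of the Prss34-low end in cKIT+. Cx3cr1 had 18.7 CPM (16.1 to 21.6) in the lowest bin and 2.64 CPM (1.56 to 4.17) in the highest, a ratio of 7.09 (4.36 to 12.2). The lowest cKIT- bin had 0 Cx3cr1 UMIs, and a count of 0 there allows up to 1.32 CPM at 3 counts (1.63 CPM as exact Poisson bound). The level of every cKIT+ bin was above this, but the interval of the highest bin overlapped the Poisson bound. Ccr2 had 5.79 CPM in the lowest cKIT+ bin, from 56 UMIs in 3.03% of its cells. In the highest bin it had 0.440 CPM from 3 UMIs, a ratio of lowest over highest of 13.2 (4.28 to 65.7). Kit went from 47.2 to 5.72 CPM along these bins. Of the lowest cKIT+ bin, 64.6% of cells were in basophil-like clusters, against 99.4% of the highest. The monocyte marker sum went from 410.0 to 139.6 CPM (3 and then 2 of the 9 markers other than Ccr2 at 20 CPM or more) and the macrophage sum from 45.4 to 23.6 CPM (0 of 10 in both). The dendritic marker sum went from 122 to 64.1 CPM, and mast cell markers were not summed. Within basophil-like clusters alone, which differed in their Cx3cr1 level, the Cx3cr1 ratio was 7.04. Without the cells rich in markers of other classes (progenitor list aside) it was 7.36. Its range over all alternatives was 6.06 to 27.7. The Ccr2 ratio was 3.46 within basophil-like clusters and 12.8 without the marker-rich cells, and it ranged up to 44.6, so its size is not resolved.

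Compared at the same Prss34 share, the sorts were close for Cxcr4 at the high end and far apart at the low end. At 4% or more Prss34 the Cxcr4 ratio of cKIT- over cKIT+ was 0.969 (0.905 to 1.04), at 2 to 4% it was 1.10 (1.01 to 1.21), and under 0.1% it was 0.151 (0.108 to 0.205). Cxcr2 was 1.97 times (1.68 to 2.33) higher in cKIT- in the highest bin and 27.1 times (23.1 to 31.9) in the lowest. The corresponding ratios were 1.68 and 9.73 for Ccr1, 2.55 and 35.0 for Ccr3, and 3.75 and 54.3 for C3ar1. For these 4 genes the cKIT- level was the higher one in all 6 bins, with intervals that did not reach 1. An equal Prss34 share did not make the cells alike otherwise. Under 0.1%, Kit was at 47.2 CPM in cKIT+ and 0.442 CPM in cKIT-, and Mki67 at 170 and 7.07 CPM. Median depth was 12715.5 and 3014 UMIs, and 64.6% and 99.5% of cells were in basophil-like clusters. The part of these differences in the ratios was not tested.

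**Figure D4:**
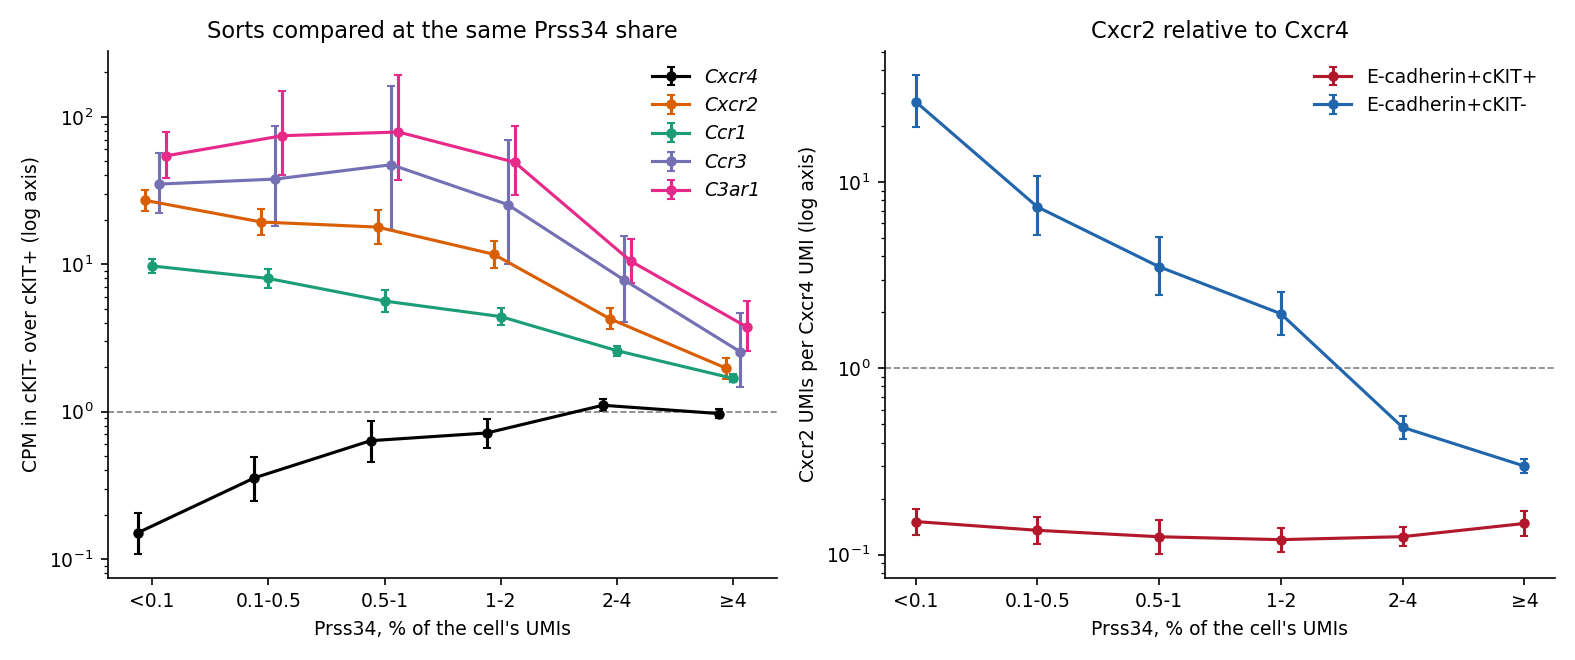
Left, ratio of CPM in cKIT- over cKIT+ Mcpt8-positive cells within each Prss34 bin for 5 receptor genes, on a log axis with 95% intervals from the exact binomial and a dashed line at 1. Right, Cxcr2 UMIs per Cxcr4 UMI in each bin and sort, also on a log axis, from 27.0 to 0.299 in cKIT- cells and between 0.120 and 0.151 in cKIT+ cells.

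Captured Cxcr2 molecules per Cxcr4 molecule put both genes on 1 scale that library depth cancels from, read only between bins and not as a comparison of the proteins. In cKIT- cells this number was 27.0 (19.9 to 37.7) in the lowest Prss34 bin, then 7.36, 3.51, 1.97 and 0.483, and 0.299 (0.275 to 0.325) in the highest. Every cKIT+ bin lay between 0.120 and 0.151. At 2000 UMIs per cell, Cxcr2 was seen in 15.3% (12.5 to 18.5) of the 582 cKIT- cells with a Cxcr4 UMI and in 33.7% (31.8 to 35.7) of the 2282 without. These shares pool bins along which both genes change, and within every bin the 2 intervals overlapped. Within the highest bin they were 45 of 388 cells (8.59 to 15.2%) and 126 of 969 (10.9 to 15.3%). Within the lowest bin they were 15 of 22 cells (45.1 to 86.1%) and 410 of 653 (59.0 to 66.5%).

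The Prss34-high cKIT- cells were themselves of several kinds. At 4% or more Prss34, the 245 cells of the Sytl3/Ccl3 cluster had Cxcr2 at 134.5 CPM (115 to 156), C3ar1 at 54.4 CPM, Ccr3 at 21.8 CPM, Ccr1 at 428 CPM and Cxcr4 at 116 CPM (98.0 to 136), with Mki67 at 6.22 CPM. In the same bin, 360 cells of a basophil-like cluster led by the mitosis genes Cdc25b, Ube2c and Cenpa had Cxcr2 at 56.3 CPM (49.3 to 64.1) and Cxcr4 at 182 CPM (169 to 196), with Mki67 at 556 CPM. A further 247 cells, of a cluster led by Cd200r4, Prss34 and Igfbp7 with Mki67 at 27.1 CPM, had Cxcr2 at 61.4 CPM (51.2 to 73.1) and Cxcr4 at 205 CPM (186 to 226). The Cxcr2 interval of the Sytl3/Ccl3 cells overlapped that of no other cluster with at least 20 cells in the bin. In this bin the median depth was 5116 UMIs in Sytl3/Ccl3 cells, 8432 in Cd200r4 cells and 11281 in Cdc25b cells. The parts of depth and cell division in this difference were not tested.

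Several clusters held cells of both sorts, and there the levels could be set side by side. In the Cdc25b/Ube2c cluster (267 cKIT+ and 442 cKIT- cells) Cxcr4 was at 186 and 187 CPM, whereas Cxcr2 was at 29.1 and 60.8 CPM, Ccr1 at 184 and 357 CPM and C3ar1 at 5.595 and 22.3 CPM. In the Cd7/Ccl6 cluster the 69 cKIT+ cells had Cxcr2 at 442 CPM, Ccr1 at 391 CPM, C3ar1 at 224 CPM and Cxcr4 at 11.5 CPM, against 504.5, 469.5, 195 and 24.7 CPM in its 1218 cKIT- cells. The receptor profile of this cluster was therefore found in cells of both libraries. Kit was at 0 CPM in the cluster, against 37.1 CPM over the cKIT+ library. Whether its 69 cells of the cKIT+ library carried cKIT or came through the sort without it cannot be told apart.

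Other receptors of the same kind were measured from lists. The lists were chosen with earlier results of these data known, so their counts beside the shares over all genes are description only. Of 17 further chemokine receptor genes, 1 reached 5 CPM in a library, and it was not 2-fold different between the sorts. Of 18 other chemoattractant receptor genes, 17 were in the files and 10 passed this minimum. Of these, 8 were at least 2-fold higher in cKIT- (9.32% of all genes compared) and 0 in cKIT+ (8.52%). Among the 8, C5ar1, C5ar2, Hrh4, Cmklr1 and S1pr1 passed the minimum only through cKIT-, where they are high. Their median log2 ratio of cKIT+ over cKIT- was -1.36, against -0.02 over all genes compared. Along Prss34, 6 of 10 were at least 2-fold higher in the lowest cKIT- bin (11.8% of all genes compared) and 0 were lower (16.5%). Among the 6, C5ar2 and Ptafr passed the minimum only through the lowest bin, where they are high. In cKIT+ 0 of 6 were higher (6.41% of all genes compared) and 1 was lower (4.23%). The lower gene, Cmklr1, passed the minimum only through the highest bin, where it is high. C5ar1, the receptor of complement C5a, had 4.24 CPM in cKIT+ and 31.4 CPM in cKIT-, and along the cKIT- bins it went from 113.5 CPM in the lowest to 5.68 CPM in the highest. Gpr183, the receptor of an oxysterol, had 24.5 and 75.2 CPM by sort, S1pr4, a sphingosine-1-phosphate receptor, 40.4 and 90.7 CPM, and P2ry14, a receptor of UDP-sugars, 22.2 and 57.5 CPM. The leukotriene B4 receptor gene Ltb4r1 was level, at 174.5 and 162 CPM. Hrh4, the histamine receptor of leukocyte movement, and C5ar2 were named by their level in the lowest cKIT- bin, 25.2 and 33.6 CPM against 8.49 and 4.24 CPM in the highest.

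Genes of the receptors' ligands were counted in the same way. Of 19 ligand genes, 6 were compared between the sorts, with a median log2 ratio of -3.87, against -0.02 over all genes compared. Of the 6, 4 were at least 2-fold higher in cKIT- (9.32% of all genes compared) and 1 in cKIT+ (8.52%). The CCR1 ligand genes Ccl6 (74.9 and 1923 CPM in cKIT+ and cKIT-), Ccl9 (239.8 and 1987 CPM) and Ccl3 (52.1 and 1412 CPM), and the inflammatory chemokine gene Ccl4 (12.0 and 339 CPM), were in the first group. Along the cKIT- bins Ccl6 went from 5771 CPM in the lowest to 899 CPM in the highest, Ccl9 from 5377 to 1173 CPM, Ccl4 from 1101 to 167 CPM and Ccl3 from 3032 to 1119 CPM. C3, the precursor of the C3a ligand of C3AR1, was higher in cKIT+, at 35.2 against 14.8 CPM.

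Of 24 genes that carry the receptors' signal, 22 were compared between the sorts. Of these, 6 were at least 2-fold higher in cKIT-, against 9.32% of all genes compared. The median log2 ratio of cKIT+ over cKIT- was -0.75 over the list and -0.02 over all genes compared. The 6 included Rgs2, a brake on G protein signalling (97.6 and 358 CPM), Prex1, an activator of Rac (19.3 and 54.5 CPM), Rac2 itself (616 and 1263 CPM), and Arrb2, the arrestin that ends receptor signalling (77.3 and 159 CPM). Gnai2, the main inhibitory G protein alpha subunit of leukocytes, had 695 and 1091 CPM. Along the cKIT- bins 7 of 23 were at least 2-fold higher in the lowest bin (11.8% of all genes compared) and 0 were lower (16.5%). Rgs2 with 761 against 243 CPM and Prex1 with 110 against 38.7 CPM were among the 7. Another of them, Rgs3 (12.8 against 1.21 CPM), reached 5 CPM only in the lowest bin, where it is high. In cKIT+, 0 of 22 passed 2-fold in either direction, against 6.41% and 4.23% of all genes compared that were higher and lower.

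The genes whose levels across 24 clusters of at least 50 cells were most like those of each receptor were taken from 6006 genes, by Pearson's r of log2(CPM + 1). These correlations are descriptions over clusters that share libraries and depth. For Ccr2 they were S100a4 (0.96), Mcub (0.93) and Olfm1 (0.91), for Cx3cr1 Ahr (0.93), Kctd12b (0.91) and Wdfy3 (0.88), and for Ccr1 Plek (0.92), Hacd4 (0.91) and Itgal (0.89). Ctsd (0.88), C3ar1 (0.83) and Pld3 (0.82) were most like Ccr3, so 1 receptor was among the nearest genes of another. For C3ar1 the nearest were Tmem9b (0.91), Rab11a (0.90) and Mknk1 (0.89), and for Cxcr2 2310001H17Rik (0.89), Osm (0.89) and Ppp1r12a (0.89). Cxcr4 had no close match, with Ndufa1 (0.70), Gapdh (0.69) and Hmgn2 (0.65) at the top. Between the receptors themselves r was 0.78 for Cxcr2 and Ccr1 and 0.74 for Ccr2 and Cx3cr1, and 0.22 for Cxcr2 and Cxcr4.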

How the data were processed

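Single-cell RNA libraries of the 2 sorted populations were used. The authors deposited the 10x Genomics output as unnormalised UMI counts. The submitters' processing notes name Cell Ranger 3.0.2 and the genome mm10. The release of the gene annotation is not given in the sources used here, and the kit is version 3 in the methods and also version 2 in the labels.

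The study's filter was applied per library (genes in at least 40 cells, outer 1% of genes per cell, highest 1% of UMIs). Levels were UMIs summed over all genes and kept cells (91108781 in cKIT+, 22869169 in cKIT-) and scaled to CPM, compared at a minimum of 5 CPM and a 2-fold difference. With 1 library per sort no test was run, and intervals cover counting error only at 95%. A count of 0 allows up to 3 counts. Intervals of ratios came from the exact binomial. The ratio and its intervals were tested on simulated data.

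Clustering used Seurat 5.3.0 under R 4.3.3 (2000 variable genes without the receptors, 15 principal components, resolution 1). A marker was on at 20 CPM and 10% of its highest cluster. A cluster took a class other than basophil from its 10 leading genes, by rules set after the clusters were seen. It needed 3 markers of the class on and at least 2 leading, or any leading where fewer than 5 basophil markers were on. Basophil-like clusters needed at least 5 basophil markers on and no such other class. An erythroid or progenitor class was not given where more basophil than own markers were on. Clusters of low depth could stay unnamed. Clusters of fewer than 20 cells of a sort were not read for it. Doublets were kept, and the study's methods name no step for them. Scrublet in Scanpy 1.11.5 marked 252 cKIT+ and 5 cKIT- cells, and in cKIT- its call has not worked, so the highest scores (352 and 112 cells) were left out as an alternative. edgeR 4.0.16 was used only for TMM scaling.

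The receptors and lists were chosen with earlier results of these data known. Named besides the receptors are list genes with at least 20 CPM in a sort, the 3 genes most like each receptor, and the genes of the sort and the ordering. C5ar2, Hrh4, Cmklr1, S1pr1, Ptafr, Rgs3, Mki67 and the genes that name clusters were picked out with their values known. The alternatives tried concern cell filters, weighting, scaling, doublets, depth, the Mcpt8 threshold, the bins and the clustering.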

Additional observations from a re-analysis of the deposited data

Results flagged for a closer look

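Cxcr2 and Ccr1 differed in direction along Prss34 between the sorts. The CPM ratio of the lowest over the highest Prss34 bin was 0.675 (0.547 to 0.833) in cKIT+ and 9.28 (8.44 to 10.2) in cKIT- for Cxcr2, and 0.253 (0.226 to 0.282) and 1.46 (1.37 to 1.57) for Ccr1. With 1 library per sort the difference between the sorts was not tested, and the Cxcr2 ratio in cKIT+ and the Ccr1 ratio in cKIT- each turned under an alternative given next.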

How the results depend on the processing

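No paired analysis was possible because each sort is 1 library. Of 367 values recomputed under alternatives, 10 turned in direction and 130 moved by more than the counting interval or, for counts, by over 1.5 times. Crossings of 1 by the cKIT+ bin ratios of Ccr3 and C3ar1, whose main intervals held 1, were not counted as turns. With equal cell weight the ratio went from 0.969 to 2.39 for Ccr3 and from 0.771 to 2.23 for C3ar1. Giving every cell the same weight turned the cKIT+ over cKIT- ratio of Cxcr4 to 1.15 and of Ccr2 to 1.04, and the cKIT+ lowest over highest bin ratio of Cxcr2 to 1.14. In UMIs per cell the sort ratios of Cxcr4 and Ccr2 became 1.86 and 1.04, and the cKIT- bin ratio of Ccr1 became 0.464 (chosen after seeing the data), with 2 receptors then at least 2-fold lower in the lowest cKIT- bin. Thinning to 2000 UMIs gave 1.10 for Cxcr4, basophil-like clusters alone 1.03 for Cxcr4 and 1.04 for Ccr2, and Mcpt8-positive cells alone 2.74 for Ccr2 with 2 receptors at least 2-fold higher in cKIT+. The Cx3cr1 sort ratio of 4.71 became 8.47 with equal cell weight, 8.98 after thinning, 10.6 in UMIs per cell, 35.4 among Mcpt8-positive cells and 38.7 in basophil-like clusters. For C3ar1, Ccr3, Cxcr2 and Ccr1 the cKIT+ over cKIT- ratios were 0.0551, 0.115, 0.119 and 0.201 in the main setting. In UMIs per cell they were 0.124, 0.260, 0.268 and 0.453. Within basophil-like clusters they were 0.0560, 0.0639, 0.140 and 0.280. With equal cell weight that of Ccr3 was 0.211. None of these 4 turned. Calling Mcpt8-positive from 1 UMI put 3 receptors at least 2-fold lower in the lowest cKIT+ bin. With a minimum of 20 CPM, 386 and 581 of 6075 genes passed 2-fold in cKIT+ and cKIT-. With 10 UMIs it was 2500 and 1675 of 14741, against 806 and 882 of 9459 in the main setting. The 5 receptors at least 2-fold higher in cKIT- became 4, without Ccr2, under 5 of the 10 alternatives to that count, while the number higher in the lowest cKIT- bin was 3 under all 11. Apart from TMM scaling between the sorts, no share over all genes was computed for the alternatives behind these receptor counts. The receptor counts under alternatives are therefore description only.

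Leaving out cells rich in markers of any other class, progenitor list included, left 11 cells in the highest cKIT+ bin and gave no value there, and in cKIT- it kept 252 of the 1360 cells of the highest bin, with a Cxcr2 ratio of 5.27. Depth limits the receptors with few UMIs. Ccr2 and Cx3cr1 had 0 to 5 UMIs in each cKIT- bin, so no order was read from them.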
